A study of Homo sapiens with 10 samples.

Results

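The hexosamine pathway and the cycling of O-GlcNAc were examined through 9 genes, chosen by name from the known biochemistry, with earlier results of these data known. GFPT1, GFPT2, GNPNAT1, PGM3 and UAP1 encode the enzymes that build UDP-GlcNAc, OGT and OGA encode the enzymes that attach and remove O-GlcNAc, and NAGK and AMDHD2 encode enzymes of GlcNAc salvage and of the reverse route. All 9 had a row among the 22626 rows of the deposited count table. ARPE-19 cells, a human line of retinal pigment epithelial origin, had been kept for 48 h in 37.5 mM glucose (the HG group) or in 5.5 mM glucose with 32 mM mannitol as an osmotic partner (the control group), with 5 RNA-seq libraries in each. All libraries came from this 1 line, glucose and mannitol changed together, and the effects of the sugars cannot be told apart. The labels do not say whether the libraries of a group came from separate cultures, so that p-values measure only the spread between these libraries, which may be technical. Control libraries are numbered as in their labels and HG libraries by column, HG_1 to HG_5, since the labels fix only the group of each HG column.

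The hexosamine pathway is a side branch of glycolysis. GFPT1 or its paralogue GFPT2 joins fructose phosphate with the amino group of glutamine, GNPNAT1 adds an acetyl group from acetyl-CoA, PGM3 moves the phosphate, and UAP1 couples the sugar to UTP to give UDP-GlcNAc. OGT uses UDP-GlcNAc to attach single GlcNAc residues to serines and threonines of nuclear, cytosolic and mitochondrial proteins, and OGA, formerly MGEA5, removes them. The branch takes glucose, glutamine, acetyl-CoA and UTP as substrates and is much studied in diabetic tissues, the retina among them. All values below are RNA levels, and neither UDP-GlcNAc, enzyme activity nor the O-GlcNAc mark on proteins was measured.

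The libraries held 32448991 to 45864176 counts. TXNIP, a gene induced by glucose through MondoA, was at 0.809 to 1.23 CPM (counts scaled to a common library size) in the control group and 5.38 to 12.9 CPM in the HG group, and its paralogue ARRDC4 at 2.74 to 3.80 and 4.52 to 6.21 CPM, so that both separated the labelled groups. Of 14 markers of the retinal pigment epithelium, 6 reached a mean of 1 FPKM (fragments scaled by transcript length and library size), while RPE65, TYR, DCT, TTR and CRX were under 0.1 FPKM. The summed FPKM of the 14 was 58.2 to 178.8 in the control group and 52.2 to 57.3 in the HG group, and BEST1 alone held 8707 and 18223 counts in control 1 and control 4 against 24 to 300 in the other 8 libraries. PECAM1, CDH5 and VWF of endothelium, PTPRC, CD14 and ITGAM of leukocytes, and SAG and RCVRN of photoreceptors were each under 0.1 FPKM. In the same lists of 4 genes each KDR was at 0.467, CD68 at 50.01 and PDE6B at 6.01 FPKM on average. The summed FPKM of the leukocyte list, carried by CD68, was 29.5 to 42.9 in the control group and 55.7 to 74.9 in the HG group, and that of the 6 keratin and junction genes (with KRT8, KRT18 and CDH2 at 1 FPKM or more, and EPCAM and CDH1 under 0.1) was 1594 to 1932 and 1028 to 1320. These sums did not overlap between the groups, nor, narrowly, did that of the retinal pigment epithelium markers. The part of these genes in the results below was not tested. HG_1 and control 2 stood apart from the other libraries of their groups by the GC content of their counts, and results that rest on them are given with and without them below.

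Of the 9 genes, 8 passed the filter on low counts and were tested, and 1 of these, OGA, differed between the groups. OGA was higher in the HG group by 0.70 on the log2 scale (SE 0.0921, 95% interval 0.50 to 0.90), with an adjusted p of 0.000729 by edgeR's quasi-likelihood test over 14936 rows. The other 7 tested genes did not pass, and 0 were called lower by edgeR or DESeq2, nor was any lower at an unadjusted p under 0.05. Over all tested rows 15.4% passed in either direction, 7.62% being higher and 7.8% lower in the HG group. The median log2 fold change of the 8 was 0.06, beside 0.00 for all rows. By effect size OGA ranked 177 among the 1138 rows that were higher. In bulk RNA a change in the number of cells of a kind and a change in RNA per cell cannot be told apart.

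The promoters of OGA, of OGT as its opposing enzyme, and of AMDHD2 are shown as the 250 bases before the RefSeq start (GRCh38.p14), read 5′ to 3′ on the strand of the gene. AMDHD2 was added after its motif count was seen. OGA lies on chr10:101784443-101818465, minus strand, OGT on chrX:71533083-71575897, plus strand, and AMDHD2 on chr16:2520357-2531422, plus strand (GRCh38, GENCODE 29). The windows are chr10:101818445-101818694, chrX:71532854-71533103 and chr16:2520121-2520370, and the 21, 21 and 14 bases nearest each start lie within the GENCODE gene. Capitals mark every match, on either strand, to 5 motifs: CCACG and CCAAT, the parts of the endoplasmic reticulum stress element, TGACGTGG, bound by XBP1 and ATF6, TGATGNAAN, the amino acid response element bound by ATF4 with C/EBP partners, and CACGTG, the E-box.
OGA: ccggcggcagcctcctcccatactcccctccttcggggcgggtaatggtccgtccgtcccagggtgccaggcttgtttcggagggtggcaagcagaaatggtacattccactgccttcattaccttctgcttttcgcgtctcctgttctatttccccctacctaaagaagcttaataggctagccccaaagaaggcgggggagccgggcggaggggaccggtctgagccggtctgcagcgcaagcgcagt
OGT: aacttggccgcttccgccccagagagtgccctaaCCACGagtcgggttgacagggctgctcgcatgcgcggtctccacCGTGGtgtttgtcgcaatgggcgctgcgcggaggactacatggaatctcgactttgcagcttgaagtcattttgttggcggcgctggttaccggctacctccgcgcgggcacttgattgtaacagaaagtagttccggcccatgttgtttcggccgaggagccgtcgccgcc
AMDHD2: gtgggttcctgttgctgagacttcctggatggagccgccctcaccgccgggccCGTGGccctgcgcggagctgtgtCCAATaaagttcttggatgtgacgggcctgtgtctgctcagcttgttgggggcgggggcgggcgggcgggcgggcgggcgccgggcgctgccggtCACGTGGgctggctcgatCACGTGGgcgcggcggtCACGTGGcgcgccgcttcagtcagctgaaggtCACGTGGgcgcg
The OGA window held no match to any of the 5 motifs. The OGT window held 2 matches to CCACG, 216 and 172 bases before the start. The AMDHD2 window held 4 CACGTG motifs, 79, 61, 44 and 12 bases before the start, each overlapped by a CCACG match on the other strand, besides 1 further CCACG and 1 CCAAT. Of 35116 promoter windows of this length 33.5% held CCACG, 32.0% CCAAT, 0.612% TGACGTGG, 3.13% TGATGNAAN and 6.34% CACGTG, and 0.0142% held 4 or more CACGTG, a limit set after the AMDHD2 count was seen. RefSeq gave at least 1 window for each of the 9 genes. The single GFPT1 window and a PGM3 window each held 3 CCACG, and windows of UAP1 and NAGK also held CCACG. The share of promoters with 3 or more CCACG was not taken. No window of the 9 genes held TGACGTGG or TGATGNAAN. A match is a description of letters and not a measured site, and no factor binding was measured.

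At the entry to the pathway, GFPT1, the glutamine:fructose-6-phosphate amidotransferase that sets its flux, did not pass the test. GFPT1 (chr2:69319769-69387254) was at 89.5, 69.4, 81.1, 86.4 and 83.4 CPM in control 1 to 5 and at 60.7, 83.1, 73.8, 91.7 and 81.3 CPM in HG_1 to HG_5. The groups overlapped throughout, and HG_1 and control 2 were the lowest of their groups. The log2 fold change was -0.07 (SE 0.106, 95% interval -0.30 to 0.16, adjusted p = 0.741 by edgeR), an interval that spans a level 18.9% lower to one 12.1% higher. GFPT2 (chr5:180300690-180353387), the paralogue with the same reaction, had 2 counts in control 2 and was listed at 0 in the other 9 libraries. It did not enter the test. A count of 0 allows up to 3 counts, or 0.0669 to 0.0912 CPM by library, counting error only, while GFPT1 held at least 2337 counts in every library. The planned ratio of GFPT1 to GFPT2 therefore could not be formed. The table also has 2163 rows named only by an assembly number, with 1.34% to 1.65% of the counts, and reads of a listed gene placed in such a row cannot be traced to it here.

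None of the 3 enzymes between GFPT1 and UDP-GlcNAc passed the test. GNPNAT1 (chr14:52775194-52791668), the acetyltransferase, was at 58.2, 51.3, 58.5, 62.6 and 63.2 CPM in control 1 to 5 and at 57.2, 65.8, 66.6, 70.8 and 67.5 CPM in HG_1 to HG_5. The groups overlapped, with HG_1 and control 2 again the lowest of their groups. Its log2 fold change was 0.16 (SE 0.0722, 95% interval -0.00 to 0.32) with an adjusted p of 0.176 by edgeR. PGM3 (chr6:83161150-83193936), the phosphomutase, was at 54.9, 48.1, 56.2, 54.8 and 51.9 CPM in control 1 to 5 and at 45.7, 54.0, 54.3, 56.5 and 52.2 CPM in HG_1 to HG_5, with a log2 fold change of -0.02 (95% interval -0.16 to 0.13). Apart from the low values of HG_1 and control 2 these libraries lay between 51.9 and 56.5 CPM. UAP1 (chr1:162561506-162599842), the pyrophosphorylase that makes UDP-GlcNAc, was at 106.5, 94.2, 97.2, 100.6 and 104.5 CPM in control 1 to 5 and at 92.8, 110.3, 99.5, 111.1 and 108.2 CPM in HG_1 to HG_5, with a log2 fold change of 0.05 (95% interval -0.08 to 0.19). Neither passed (adjusted p = 0.903 and 0.630 by edgeR), and their intervals reach no further than 13.8% in either direction.

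OGA and OGT, which act on the same proteins in opposite directions, gave unequal results. OGA, the O-GlcNAc hydrolase, was at 131.4, 108.5, 135.7, 126.4 and 132.9 CPM in control 1 to 5 and at 163.0, 227.0, 208.1, 218.3 and 214.3 CPM in HG_1 to HG_5. The lowest HG library, HG_1, lay above the highest control library, control 3. Among all tested rows 13.6% showed such a separation of the groups, and OGA was the only one of the 8 tested genes that did. The means were 127.0 ± 10.9 CPM (SD, n = 5) and 206.1 ± 25.1 CPM (SD, n = 5), and the fitted level was 62.4% higher in the HG group (95% interval 41.0% to 86.9%). OGT, the O-GlcNAc transferase, was at 196.8, 128.2, 161.8, 157.6 and 172.9 CPM in control 1 to 5 and at 135.9, 195.0, 163.8, 181.6 and 180.9 CPM in HG_1 to HG_5. Both groups spanned nearly the same range, with control 2 and HG_1 again the lowest. The log2 fold change of OGT was 0.07 (SE 0.119, 95% interval -0.19 to 0.33, adjusted p = 0.770 by edgeR), so that neither a level 12.5% lower nor one 25.8% higher in the HG group lies beyond its interval.

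**Figure D1:**
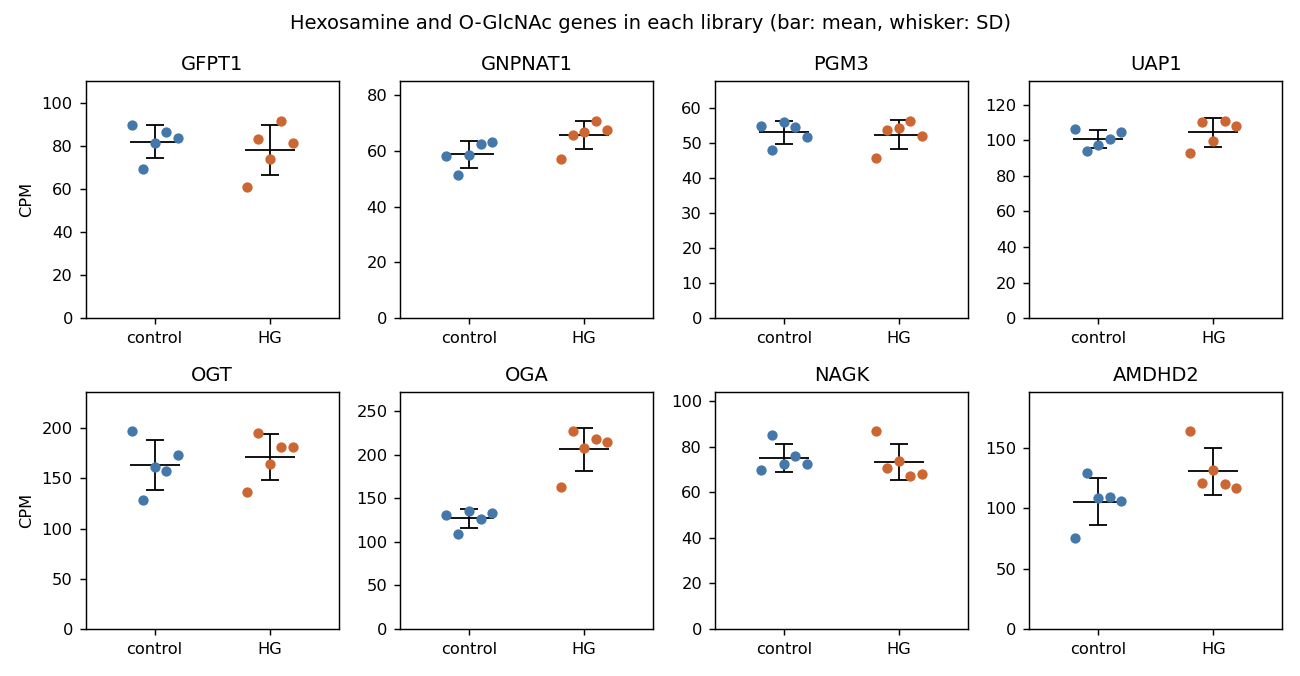
Level of the 8 tested genes in CPM (vertical axes, starting at 0) in each control library (blue) and HG library (orange), ordered by library number, with the mean as a bar and the SD as whiskers. OGA is the one gene in which all 5 HG libraries, from 163.0 CPM, sit above all control libraries, up to 135.7 CPM.

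The within-library ratio of OGT to OGA counts needs no scaling between libraries. It was 1.50, 1.18, 1.19, 1.25 and 1.30 in control 1 to 5 and 0.834, 0.859, 0.787, 0.832 and 0.844 in HG_1 to HG_5. OGT counts exceeded OGA counts in every control library and fell short of them in every HG library. The mean log2 ratio was lower in the HG group by 0.62 (difference -0.62, SE 0.0658, 95% interval -0.77 to -0.47), which is 0.649 of the control ratio. The two-sided exact permutation test gave p = 0.00794, the smallest that 252 arrangements allow, and 0.0159 after Benjamini-Hochberg adjustment over the 2 ratios tested. Since the genes differ in length, the side of 1 on which a ratio of counts falls says nothing of which RNA is more abundant. HG_1 and control 2 lay inside the range of the other libraries in the HG group and at the low end in the control group, at 0.834 and 1.18.

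**Figure D2:**
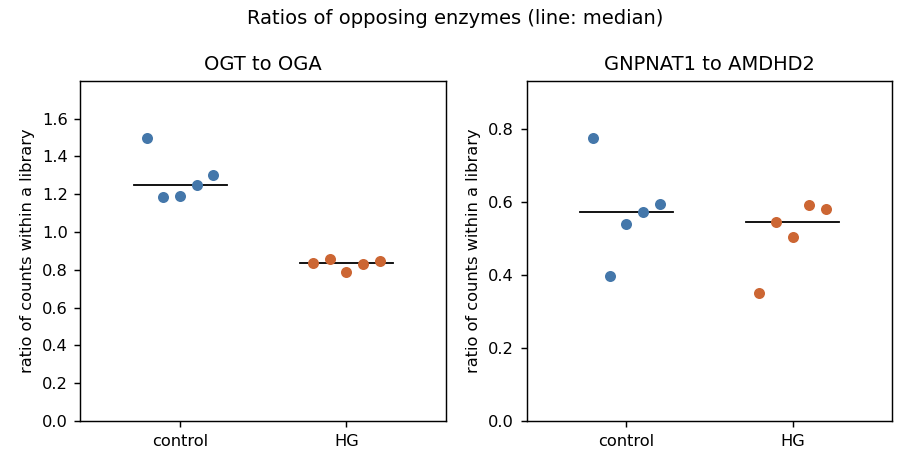
Ratio of counts of 2 opposing enzymes within each library (vertical axes, starting at 0), for control (blue) and HG (orange) libraries, with a line at the median. For OGT to OGA the medians are 1.25 and 0.834 with no overlap, and for GNPNAT1 to AMDHD2 they are 0.573 and 0.544 with overlap.

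Salvage and reverse enzymes came next. NAGK (chr2:71064344-71079805), the kinase that returns free GlcNAc to the pathway, was at 69.6, 85.2, 72.2, 75.9 and 72.5 CPM in control 1 to 5 and at 86.8, 70.6, 73.9, 67.0 and 68.1 CPM in HG_1 to HG_5, with a log2 fold change of -0.04 (95% interval -0.21 to 0.14, adjusted p = 0.828 by edgeR). The highest NAGK values were those of control 2 and HG_1. AMDHD2, the deacetylase that takes the acetyl group off GlcNAc phosphate and so runs against GNPNAT1, was at 75.0, 129.5, 108.3, 109.2 and 106.2 CPM in control 1 to 5 and at 163.9, 121.0, 132.2, 120.1 and 116.6 CPM in HG_1 to HG_5. Control 1 was far below the rest of its group, and control 2 lay among the HG libraries. Its log2 fold change was 0.31 (SE 0.137, 95% interval 0.01 to 0.61), with an adjusted p of 0.168 by edgeR. The ratio of GNPNAT1 to AMDHD2 counts, the forward against the reverse step, was 0.396 to 0.775 in the control group and 0.349 to 0.590 in the HG group, a log2 difference of -0.16 (95% interval -0.64 to 0.32, p = 0.429 by the exact permutation test). This difference was -0.0255 without HG_1, -0.285 without control 2 and -0.0429 without control 1, and -0.152 without HG_1 and control 2 together.

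AMDHD2 also carries a limit of annotation. It shares 1383 exonic bases with CEMP1 on the opposite strand and 378 with AC093525.1 on its own, and both of these were listed at 0 in every library. Windows of 100 bases that also occur in transcripts of other genes made up 49.3% of the longest coding transcript of AMDHD2, 27.8% of that of GNPNAT1, 14.6% of that of PGM3 and 2.01% of that of NAGK, and none of OGA, OGT, GFPT1, UAP1 or GFPT2. GNPNAT1 shares 1426 bases with the antisense gene AL139317.3, which has no row in the table, and PGM3 shares 1087 with DOP1A on the opposite strand, at a log2 fold change of -0.05 (adjusted p = 0.904 by edgeR). Whether reads were counted by strand is not given in the sources used here, so the values of AMDHD2, GNPNAT1 and PGM3 are less certain than those of OGA, OGT, GFPT1 and UAP1.

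The place of HG_1 and control 2 within their groups went with the GC content of the gene. The 6 genes whose longest coding transcript had 38.3% to 44.8% GC (GFPT1, PGM3, GNPNAT1, OGT, OGA and UAP1) were all lowest in HG_1 within the HG group and all lowest in control 2 within the control group. NAGK, at 52.9% GC, and AMDHD2, at 64.4%, were highest in both. The median over tested rows was 48.5% GC. OGT lay 0.40 log2 units lower in HG_1 and 0.42 lower in control 2 than the mean of the other 4 libraries of its group (differences of -0.40 and -0.42), and AMDHD2 0.42 and 0.39 higher. As 1 such library fell in each group, these differences are part of the spread within both. What set the 2 libraries apart was not tested.

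**Figure D3:**
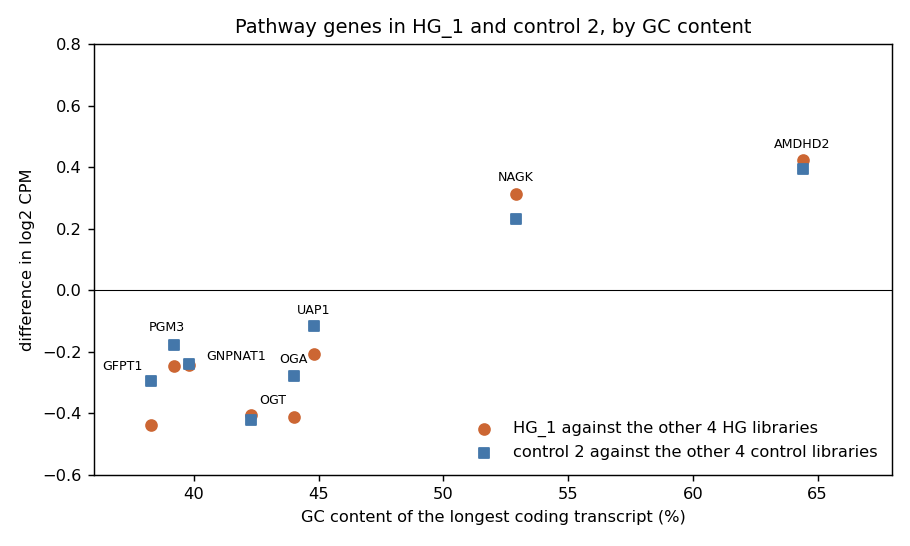
Difference in log2 CPM between HG_1 (circles) or control 2 (squares) and the mean of the other 4 libraries of its group (vertical axis) against the GC content of each gene (horizontal axis, percent). The 6 genes at 38.3% to 44.8% GC lie below 0 in both libraries, and NAGK and AMDHD2 lie above 0.

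Removing from every library its own dependence on GC content and on length, a step added after results were known, narrowed the intervals and brought 2 more genes past the threshold. GNPNAT1 then was 55.2 to 61.4 corrected CPM in the control group and 62.3 to 67.3 in the HG group, with a log2 fold change of 0.15 (SE 0.0396, adjusted p = 0.0146 by edgeR). AMDHD2 was 77.4, 108.3, 108.5, 109.8 and 107.3 corrected CPM in control 1 to 5 and 127.8 to 135.5 in the HG group, with a log2 fold change of 0.37 (SE 0.0816, adjusted p = 0.00494 by edgeR). For both genes the corrected groups no longer overlapped, and for AMDHD2 control 1 still stood alone at the low end. The share of all rows without overlap after this correction was not taken, so this separation cannot be set against it. OGA stayed at 0.70 (SE 0.0421, adjusted p = 6.80e-07 by edgeR), and GFPT1, PGM3, UAP1, OGT and NAGK did not pass. These 3 of 8 stand beside 29.4% of the 13538 rows that had both values. Leaving out HG_1 and control 2 altogether called OGA and GNPNAT1 (0.16, adjusted p = 0.0201 by edgeR) where 27.1% of rows passed, with AMDHD2 at an adjusted p of 0.0798. Leaving out HG_1 alone called the same 2 genes, GNPNAT1 at 0.21 (adjusted p = 0.0421 by edgeR), where 19.9% of rows passed. The share of pathway genes called was near the share of all rows in each of these fits.

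**Figure D4:**
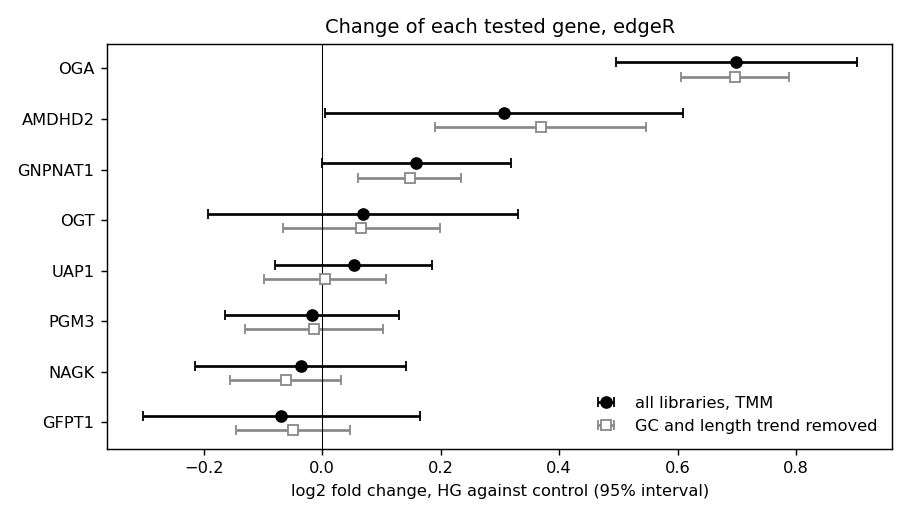
Log2 fold change of each tested gene, HG against control (horizontal axis), with its 95% interval, from the fit on all libraries (filled circles) and after the GC and length trend was removed (open squares). The OGA interval, from 0.50 to 0.90, lies clear of 0 in both. The AMDHD2 interval starts just above 0 in the fit on all libraries and further from it once the trend is removed, and that of GNPNAT1 lies clear of 0 in the latter alone.

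Compared per length, the genes of the control group fell into 2 tiers. In the control group NAGK was highest at 42.2 ± 4.79 FPKM (SD, n = 5), followed by AMDHD2 at 33.7, OGT at 27.1, UAP1 at 26.3 and OGA at 22.9 FPKM, and each of these overlapped its neighbour over the libraries. GNPNAT1 at 14.2, PGM3 at 10.0 and GFPT1 at 8.78 FPKM formed the lower tier, with no overlap between OGA and GNPNAT1. In the HG group OGA, at 37.5 ± 5.32 FPKM (SD, n = 5), ranked above OGT at 27.8 and UAP1 at 27.6 FPKM, where it had been below both, while OGA and OGT levels still overlapped over the HG libraries. In the HG group a further gap separated GNPNAT1, at 13.3 to 17.5 FPKM, from PGM3, at up to 12.5 FPKM. GFPT1, at the entry of the pathway, had the lowest mean of the detected genes in both groups, and overlapped PGM3 over the libraries in both. The ratio of counts to FPKM should be constant for a gene of fixed length, and it varied 1.47 times over the libraries for PGM3 and 1.37 times for NAGK, 1.15 times for OGT and 1.11 times for AMDHD2, but 1.02 times or less for OGA, GFPT1, UAP1 and GNPNAT1. On FPKM the log2 fold change of PGM3 changed its sign, without passing.

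The genes around the pathway were taken as 7 lists of named genes. Among 10 genes that supply or drain hexose phosphates 5 were higher, 1 was lower and 4 did not pass, with a median log2 fold change of 0.28, beside 7.62% higher and 7.8% lower over all rows. SLC2A1, the basal glucose transporter, was lower at -0.64 (adjusted p = 9.80e-05 by edgeR), while hexokinase HK1 at 0.30, phosphofructokinase PFKM at 0.28 and GNPDA1 at 0.56 were higher. GNPDA1 and its paralogue GNPDA2 remove the amino group that GFPT1 adds. GNPDA1 was at 163.9 ± 28.3 and 240.9 ± 5.21 CPM (SD, n = 5 each; adjusted p = 0.00641 by edgeR), and GNPDA2, named after its value was seen, was higher by 0.28 (adjusted p = 0.0314 by edgeR). Among 8 genes for glutamine and acetyl-CoA, the donors of the GFPT1 and GNPNAT1 steps, 2 were higher, namely acetyl-CoA synthetase ACSS2 at 1.19, from 38.4 ± 5.74 to 87.6 ± 7.17 CPM (SD, n = 5 each), and ATP citrate lyase ACLY at 0.49, and 6 did not pass.

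Genes that use or rework UDP-GlcNAc were called about as often as all rows, of which 15.4% passed. Of 16 genes of UDP-sugar interconversion and sialic acid synthesis 2 were higher and 14 did not pass, with GNE, which turns UDP-GlcNAc towards sialic acid, at 0.30 and the epimerase RENBP at 0.61. The groups overlapped for both genes, and 0 genes of this list were called without HG_2, HG_3 or control 4 or with limma on log2(FPKM + 1) over all rows, against 5 without HG_1 and control 2 together. Of 24 genes whose enzymes spend UDP-GlcNAc 21 were tested, 1 was higher, 2 were lower and 18 did not pass, at a median of -0.08. The heparan sulfate polymerase gene EXT1 was at -0.23 and EXTL3 at -0.22, and GCNT1, which branches O-glycans, at 0.30. MGAT3, HAS2 and MFNG were too low to test. Of 11 genes for proteins that bind OGT, from HCFC1 to the TET enzymes, 0 passed by edgeR's adjusted p and 0 by DESeq2, and 1 had an unadjusted p under 0.05. Without control 2 the count was 2, and without both control 2 and HG_1 it was 3.

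Among 9 genes for release of GlcNAc from glycans in the lysosome and cytosol, which yields the substrate of NAGK, 4 were higher, 1 was lower and 4 did not pass, at a median of 0.19. HEXA, which encodes a lysosomal hexosaminidase subunit, was higher by 0.44 on the log2 scale, from 245.1 ± 29.8 to 332.4 ± 24.7 CPM (SD, n = 5 each). HEXD, a hexosaminidase of cytosol and nucleus, was lower at -0.40. Of 12 markers of the unfolded protein and amino acid stress responses, whose factors are known to act on GFPT1, 6 were higher and 2 were lower. Asparagine synthetase ASNS rose by 1.72, TRIB3 by 1.27 and CHAC1 by 1.67, genes induced through ATF4, while the chaperone gene HSPA5 was at -0.73, from 948.6 ± 33.2 to 571.2 ± 28.4 CPM (SD, n = 5 each). Named after their values were seen, the factor gene ATF4 was higher at 0.40 and XBP1 lower at -0.31 (adjusted p = 0.00583 and 0.00999 by edgeR). GFPT1 did not pass in the same libraries, and whether these factors acted on it here was not tested. Over all rows 15.4% passed, and no list was tested as a set.

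**Figure D5:**
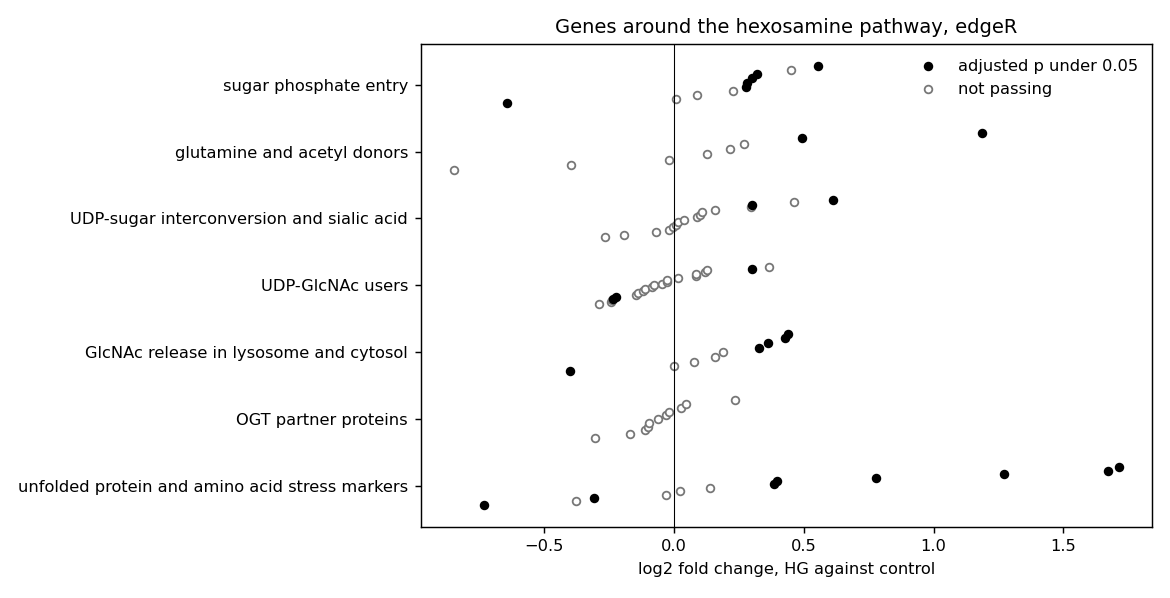
Log2 fold change, HG against control (horizontal axis), of every tested gene in 7 lists around the pathway (rows, points spread vertically within a row), filled where the adjusted p is under 0.05. Filled points are densest in the stress row, 8 of 12, and absent from the row of OGT partner proteins.

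The nearest patterns to GFPT1 and OGT over the 10 libraries, by Pearson's r of log2 CPM against 13420 named genes, were close ones. For GFPT1 they were RO60 (r = 0.983), FUT11, GNL3L, SPRED1 and PUM2 (r = 0.970), and for OGT they were PDPK1 (r = 0.972), SNX19, TMF1, LTN1 and CCDC82 (r = 0.965). None of these 10 genes passed the test between the groups. The 10 libraries include HG_1 and control 2, which were low for GFPT1 and OGT alike, and the values are a description of likeness only.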

How the data were processed

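The submitters' processing notes name fastp 0.20.1, HISAT2 2.2.1 and the GRCh38 build, and the authors deposited 1 table of raw read counts and 1 of FPKM values per gene for 10 ARPE-19 libraries. The counting program and its strand setting are not given in the sources used here. Counts were scaled by TMM and tested, HG against control, with edgeR 4.0.16 in R 4.3.3 (filterByExpr, quasi-likelihood test, Benjamini-Hochberg adjustment over 14936 rows, threshold 0.05), and CPM are TMM-scaled. Ratios of genes were taken within a library and compared by exact permutation. FPKM as deposited served for levels between genes and for limma 3.58.1, on log2(FPKM + 1). Totals of 32448991 to 45864176 counts gave every tested pathway gene at least 1716 counts a library, and intervals on counts of 0 cover counting error only. The 9 genes, the lists around them, the motifs and the exclusion of HG_1 and control 2 were chosen with earlier results of these data known. Named were the 9 genes, in each list up to 4 called genes with the smallest adjusted p and those not measured, TXNIP and ARRDC4, and the 5 genes most like GFPT1 and OGT in pattern, with exceptions marked in the text; some genes that this rule names are not reported here. Alternatives were DESeq2 1.42.0, RLE and library-size scaling, other filters, limma on FPKM, each library left out, HG_1 and control 2 left out, and, added later, removal of each library's lowess trend (span 0.3) on GC content and length through offsets. The fits were tested on simulated counts with known changes, where edgeR missed many of the smaller changes and DESeq2 made more false calls than edgeR. Within groups all 20 pairs of libraries differed by more than sampling noise (chi-square per gene 13.8 to 78.5). Promoters came from RefSeq (GRCh38.p14) and gene positions from GENCODE 29.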

Additional observations from a re-analysis of the deposited data

How the results depend on the processing

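OGA was called in all 20 alternative settings, at log2 fold changes of 0.65 to 0.78 and adjusted p of 2.43e-11 (DESeq2) to 0.00378 (limma on log2(FPKM + 1)), and the OGT to OGA ratio kept its direction in each of its alternatives. Without each library in turn its log2 difference was -0.65 to -0.57 (exact p = 0.0159 each, the smallest for 4 against 5), on FPKM -0.66, and without HG_1 and control 2 together, added after results were known, -0.65 (exact p = 0.0286, the smallest for 4 against 4, which adjustment over the 2 ratios takes past the threshold). GNPNAT1 passed at 0.16 without HG_1 and control 2 together and at 0.15 with the GC and length trend removed, and AMDHD2 passed at 0.37 in the latter alone, a step added after results were known. The number of pathway genes called was 2 and 3 in these settings, and 4035 and 3975 rows were called in all. The PGM3 difference, near 0, turned to 0.0281 with limma on log2(FPKM + 1), with and without a mean of 1 FPKM, and to 0.0308 on log2(FPKM + 0.1). Leaving out each library in turn gave -0.132 to 0.0132 for GFPT1, 0.116 to 0.208 for GNPNAT1, -0.0503 to 0.0319 for PGM3, 0.0302 to 0.0962 for UAP1, 0.207 to 0.392 for AMDHD2, -0.00521 to 0.145 for OGT and -0.100 to 0.0150 for NAGK, with 1 to 2 pathway genes called. GNPNAT1 passed without HG_1, and GFPT1, PGM3, UAP1, OGT, NAGK and AMDHD2 did not in any of these fits. UAP1 was at 0.0047 with the trend removed. In the list of UDP-sugar and sialic acid genes 0 to 3 were called without single libraries, 1 with no filter, 0 with limma on either pseudocount and 1 at a mean of 1 FPKM, 5 without HG_1 and control 2, and 5 with the trend removed. Among genes that spend UDP-GlcNAc 1 was called with limma on log2(FPKM + 0.1) and 1 at a mean of 1 FPKM, 5 without both libraries and 6 with the trend removed. Among OGT partners 0 to 2 were called without single libraries and 3 without both, and 4 glutamine and acetyl donor genes with the trend removed. The cause of these moves was not tested beyond the alternative itself. No paired analysis was possible because the HG columns carry no label that ties their numbers to single samples or to the control numbers.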
